A study of Homo sapiens with 7 samples.

Results

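The tRNA genes of the nuclear human genome were examined for binding of the transcription factor Myc in HT29 cells. HT29 is an established human cell line that came from a colon adenocarcinoma. All genes of the tRNA biotype on chromosomes 1 to 22, X and Y were taken from the NCBI RefSeq gene table of assembly GRCh38.p14, which gave 429 tRNA genes among 58961 nuclear genes. Each gene was extended by 1 kb on both sides and was called bound when the summit of a Myc peak lay inside that region. The 150 genes no more than 10 kb from where a protein-coding gene begins or ends were kept apart from the 279 genes over 10 kb from one, because summits are frequent at coding gene ends.

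Binding was mapped by CUT&RUN, in which an antibody in permeable, bead-held cells directs a nuclease to the protein, and the DNA released around it is sequenced. The study made 3 libraries with a Myc antibody, 3 IgG control libraries and 1 input. In all 7, the cells had spent 6 h in serum-free medium with oleic acid, the main monounsaturated fatty acid of olive oil. Cells without oleic acid were not analysed here, and nothing below compares conditions. The titles give the IgG group, although the labels name the Myc antibody for these libraries too.

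The authors' peak list joins the Myc libraries into 1 set of 47016 nuclear peaks, with a fold enrichment over the control level at each summit that is the authors' own value. The list holds no value per library. No spread between replicates and no test can therefore be given for any result. All intervals below are 95% intervals. Those on folds cover counting error in fragments only, and those on shares rest on the counts of genes alone. Over all peaks the median fold was 4.11, from a median pileup of 29 overlapping fragments over a control level of 5.92.

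Transfer RNAs carry amino acids to the ribosome, and their genes are copied by RNA polymerase III. The factor TFIIIC recognises 2 elements inside the tRNA gene, the A box and the B box, and places TFIIIB just upstream, which recruits the polymerase. Myc, with its partner MAX, is known mainly for binding E-box sequences near the starts of genes read by RNA polymerase II, and Myc has also been reported to bind TFIIIB and to raise transcription by polymerase III. In a symbol such as TRL-AAG2-4, the letter after TR is the amino acid in its 1-letter code and the next 3 letters are the anticodon. The number after it is the isodecoder, a distinct tRNA sequence with that anticodon, and the last number counts the copies of that sequence. Symbols beginning TRX mark the initiator methionine tRNA and those beginning TRU the selenocysteine tRNA.

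The following 5 windows show what a bound and an unbound tRNA gene looked like in sequence. They are RefSeq promoter windows of GRCh38.p14, each of 300 bases and running from 250 before to 50 after the start of the named gene, and they were picked after the values were seen from the 29 such windows that overlap a tRNA gene. Those 29 windows overlap 27 of the 429 tRNA genes, 20 of them bound. Capitals mark the bases that belong to the tRNA gene, and each window is written 5′ to 3′ on the strand of the named gene.
POLR3E window with bases of TRL-AAG2-4, chr16:22297159-22297458, + strand: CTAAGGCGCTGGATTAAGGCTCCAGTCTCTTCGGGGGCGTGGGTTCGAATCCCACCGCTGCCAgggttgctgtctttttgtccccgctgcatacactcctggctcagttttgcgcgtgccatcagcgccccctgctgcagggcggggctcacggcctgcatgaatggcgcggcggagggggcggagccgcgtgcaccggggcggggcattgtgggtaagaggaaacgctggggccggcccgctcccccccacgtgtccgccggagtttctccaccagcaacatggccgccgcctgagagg
LINC01556 window with TRL-AAG2-2, chr6:28943534-28943833, + strand: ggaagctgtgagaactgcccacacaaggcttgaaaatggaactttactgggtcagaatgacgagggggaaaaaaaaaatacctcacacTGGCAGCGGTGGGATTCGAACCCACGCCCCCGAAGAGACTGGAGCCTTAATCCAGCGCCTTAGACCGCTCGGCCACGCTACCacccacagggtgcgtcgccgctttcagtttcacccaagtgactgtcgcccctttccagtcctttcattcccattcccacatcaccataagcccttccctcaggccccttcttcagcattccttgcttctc
SHF window with TRH-GTG1-9, chr15:45201067-45201366, - strand: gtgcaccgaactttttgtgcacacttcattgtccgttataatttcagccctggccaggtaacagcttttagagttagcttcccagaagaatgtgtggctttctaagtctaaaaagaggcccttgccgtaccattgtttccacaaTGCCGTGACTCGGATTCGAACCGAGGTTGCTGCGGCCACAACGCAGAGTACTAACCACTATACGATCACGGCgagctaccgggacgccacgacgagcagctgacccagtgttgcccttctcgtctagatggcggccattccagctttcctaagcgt
LINC01731 window with TRH-GTG1-3, chr1:148281174-148281473, - strand: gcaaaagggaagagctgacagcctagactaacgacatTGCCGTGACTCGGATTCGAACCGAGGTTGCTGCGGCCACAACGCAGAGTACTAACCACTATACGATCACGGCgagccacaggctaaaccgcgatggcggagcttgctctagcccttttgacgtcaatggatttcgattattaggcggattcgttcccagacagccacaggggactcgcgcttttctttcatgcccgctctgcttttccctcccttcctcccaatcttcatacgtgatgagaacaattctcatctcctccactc
LARRPM window with TRI-TAT2-2, chr6:27020257-27020556, - strand: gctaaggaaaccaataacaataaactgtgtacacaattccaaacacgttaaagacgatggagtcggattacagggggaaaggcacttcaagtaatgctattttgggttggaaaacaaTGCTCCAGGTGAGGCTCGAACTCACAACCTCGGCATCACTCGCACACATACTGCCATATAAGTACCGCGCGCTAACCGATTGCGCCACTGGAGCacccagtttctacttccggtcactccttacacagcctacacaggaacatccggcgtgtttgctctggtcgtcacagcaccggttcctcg

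The leucine tRNA genes TRL-AAG2-4 and TRL-AAG2-2 are copies of 1 isodecoder, and all 63 bases of TRL-AAG2-4 in the POLR3E window were identical to those of TRL-AAG2-2. Both were bound. The peak at TRL-AAG2-4 had a fold of 11.4 with its nearest summit 286 bp away, and the one at TRL-AAG2-2 had 4.85 at 451 bp. The summit at TRL-AAG2-4 lay 98 bp from an end of POLR3E, nearer than the tRNA gene. The tRNA gene beside POLR3E, which encodes a polymerase III subunit, lay 188 bp from a coding gene end and that on chromosome 6 lay 19637 bp from one.

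The histidine genes TRH-GTG1-9 and TRH-GTG1-3 were also identical over all 72 bases, but only the first was bound. Its peak had a fold of 8.51, with a summit 389 bp from the tRNA gene, which lies 35 bp from a coding gene end. That summit was 354 bp from a coding gene end, nearer than the tRNA gene. TRH-GTG1-3 had its nearest summit 17494 bp away and lies 129084 bp from a coding gene end. The isoleucine gene TRI-TAT2-2, of an anticodon whose human genes are known to carry an intron, spans 94 bases. It was bound with a fold of 10.8 at 284 bp, and lies 111877 bp from a coding gene end. The summit was nearer, at 244 bp, to an end of an annotated gene of another class.

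Motifs were searched on both strands of these windows and of all 35116 promoter windows in the table. The B box consensus was in 4 of the 5 windows, including the unbound TRH-GTG1-3, and in 0.0826% of all windows. LARRPM held only the shorter core GTTCGANNC, which 0.829% of all windows held and which overlaps the B box consensus. The canonical E-box CACGTG was in the POLR3E window alone among the 5, at bases 250 to 255 and 186 bp beyond the tRNA bases, and in 7.26% of all windows. The looser CANNTG, which includes CACGTG, was in every window but that of LINC01731 and in 68.7% of all windows. For the A box, only a fixed form of its core was searched, and none of the 5 windows held that form, found in 0.373% of all windows. The POLR3E window holds 63 of the 82 bases of TRL-AAG2-4, so the rest of that gene was not searched. Looser forms of the A box were not searched either, so these tRNA genes are not shown to lack an A box. The bases of a tRNA gene were thus alike in bound and unbound histidine copies, and a match or its absence describes these letters alone.

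Myc summits lay within 1 kb of 221 of the 429 tRNA genes (51.5%, Wilson interval 46.8 to 56.2). The same rule called 36.0% of all nuclear genes, although most of these are far longer than a tRNA gene, and 3.00% of windows of 2073 bp, the median tRNA region, laid end to end along the chromosomes with unsequenced gaps included. Within 10 kb of a coding gene end, 108 of 150 tRNA genes were bound (72%, 64.3 to 78.6), where 8.56% of windows held a summit. Over 10 kb away, 113 of 279 were bound (40.5%, 34.9 to 46.4), against 1.85% of windows. The bound share was therefore 31.5 percentage points higher in the genes near coding ends (21.9 to 40.1). These intervals treat genes as independent, which neighbouring tRNA genes are not.

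The gap between both classes depended on how far from the tRNA gene a summit could lie. With a limit of 250 bp, 34 of 150 genes near coding ends and 50 of 279 far from them were bound, a difference of 4.75 points. It was 20.2 points without chromosome 6 and 13.6 points when both the peaks over 2 kb wide and the strongest 1% by fold were left out.

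**Figure D1:**
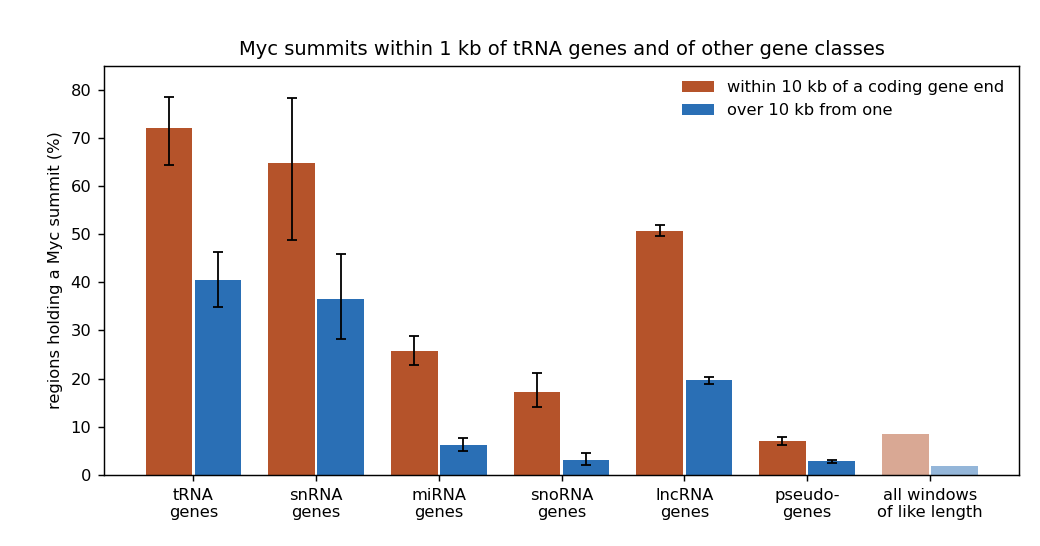
Share of regions that hold a Myc summit within 1 kb (y axis, %), for tRNA genes, 5 other gene classes and all windows of the same length, split into those within 10 kb of a coding gene end (left bars) and those over 10 kb from one (right bars). Error bars are Wilson 95% intervals, windows carry none, and the tRNA bars stand at 72% and 40.5% beside 8.56% and 1.85% for the windows.

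Other classes of genes were counted by the same rule. Of snRNA genes, which encode the RNAs of the spliceosome, 24 of 37 near coding ends (64.9%) and 41 of 112 far from them (36.6%) were bound, and both shares lie inside the intervals of the tRNA genes. The shares were lower for miRNA genes, at 25.8% near and 6.19% far, and for snoRNA genes, at 17.3% and 3.16%. Long non-coding RNA genes reached 50.8% and 19.6%. Pseudogenes had 7.06% and 2.84%. Protein-coding start sites had a summit within 1 kb in 55.2% of 22078 cases. These differences were not tested.

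The other genes that polymerase III reads were mostly bound as well. Of 12 such non-coding RNA genes, all but the vault RNA gene VTRNA1-3 had a summit within 1 kb. The folds of the 11 bound genes ran from 4.83 at RNY3 to 11.1 at RNY5, and those given here were picked after their values were seen. RNY5, which encodes a Y RNA, had a fold of 11.1, and RMRP, the RNA of the RNase MRP ribonucleoprotein, had 10.9. The signal recognition particle RNA gene RN7SL1 had 9.03 and RN7SK, whose RNA holds the elongation factor P-TEFb inactive, had 8.38. RPPH1, the RNA of RNase P that trims the 5′ end of tRNA precursors, had a summit inside the gene with a fold of 5.33. The 5S ribosomal RNA genes of the chromosome 1 array were bound in 14 of 17 cases, with a median fold of 2.35, under the 4.11 of all peaks. These 5S genes are near-identical repeats, so their reads may be split among copies and their folds are uncertain.

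The summits at tRNA genes lay beside the genes rather than on them. Among the 221 bound genes, the nearest summit was at a median of 303 bp from the gene's edge, with quartiles of 217 and 514 bp. It lay inside the gene in 1 case and 1 to 100 bp away in 3 cases. By contrast 134 genes (60.6%) had it over 100 and up to 400 bp away, with 61 genes in the bin from 201 to 300 bp. A share of 1.81% within 100 bp compares with 10.6% at protein-coding start sites, 15.6% at miRNA genes, 12.1% at snoRNA genes and 6.15% at snRNA genes. The band over 100 and up to 400 bp held 66.4% of the nearest summits at coding start sites and 71.4% at ribosomal RNA genes, so it was no fuller at tRNA genes, and 34.9% at miRNA, 28.3% at snoRNA and 40% at snRNA genes. The median distance was 324 bp in genes near coding ends and 293 bp in genes far from them.

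The gene table used here gives no strand for tRNA genes, so upstream and downstream were not told apart. In 42 bound genes a summit lay on each side. Although summits stood off the gene, the peak interval itself covered part of the tRNA gene in 128 of the 221 bound genes and in 145 of all 429. Past the limit, 16 genes had their nearest summit at 1001 to 2000 bp and 111 had it over 10 kb away. The genes just inside the limit were TRN-GTT2-8 at 999 bp, with a fold of 3.31, and TRD-GTC2-11 at 990 bp, with a fold of 11.8. Just outside were TRR-ACG2-4 at 1004 bp and TRQ-CTG1-5 at 1034 bp.

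**Figure D2:**
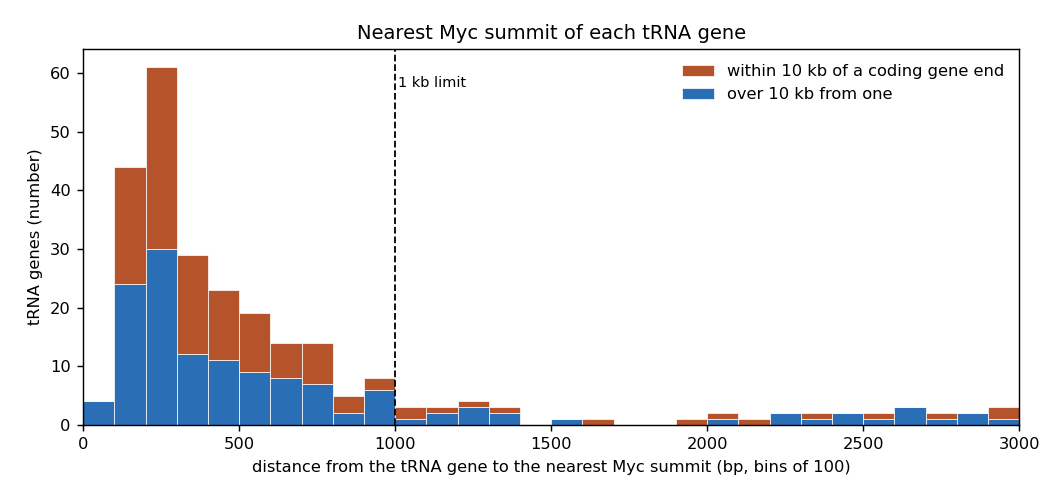
Number of tRNA genes (y axis) by distance from the gene to the nearest Myc summit (x axis, bins of 100 bp up to 3000 bp), with genes within 10 kb of a coding gene end stacked on those over 10 kb from one. The distances peak at 201 to 300 bp, few genes have a summit within 100 bp, and the dashed line marks the 1 kb limit.

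Near coding genes, a summit within reach of a tRNA gene can also lie at the end of the coding gene. The strongest summit lay within 1 kb of a coding gene end in 43 of the 108 bound genes of this class and farther in 65. In 80 of the 108, that summit was closer to the tRNA gene than to a coding gene end. The 80 include the 65 through the 1 kb rule itself, so only the other 43 could fall either way. Of the 113 bound genes far from coding ends, 93 had no end of a gene of any other class within 1 kb of their strongest summit.

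The bound genes shared peaks. The 221 genes had 169 distinct strongest peaks, of which 41 served more than 1 tRNA gene and covered 93 genes. The most on 1 peak was 4 genes, for 3 peaks. In 173 genes the region held 1 summit and in 48 genes it held 2.

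Peaks at tRNA genes had folds above the median of the list. The median fold at the 221 bound genes was 6.11, with quartiles of 4.19 and 8.96 and a range from 2.26 to 21.2, beside 4.11 over all peaks. By the same rule, the median at bound genes was 8.21 for snRNA, 7.84 for protein-coding, 6.07 for miRNA and 5.97 for long non-coding RNA genes. The other non-coding polymerase III genes had 7.52, snoRNA genes 4.79 and pseudogenes 4.17. A median above 4.11 was thus not particular to tRNA genes. For tRNA genes it was 7.69 near coding ends and 4.90 far from them, where all peaks had medians of 5.01 and 3.66. Per peak, the median pileup was 45 fragments at tRNA genes, between 17 and 209, and the control level was 6.22, close to the 5.92 of all peaks. The median width was 1270 bp at tRNA genes and 688 bp over all peaks, and the median −log10 q was 20.3 and 8.69. Of the 169 peaks, 35 had a fold of 10 or more and 14 had one under 3.

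The strongest peak far from coding genes was at the lysine gene TRK-TTT3-4 (chromosome 11, 59560335 to 59560407), with a fold of 21.2 (18.0 to 24.8) from 152 fragments over a control level of 6.22. Its summit lay 794 bp from the tRNA gene, and the nearest coding gene end, of the oxysterol-binding protein gene OSBP, was 13991 bp from that gene. The summit was 455 bp from an end of an annotated gene of another class, so it is not among those apart from every gene. The leucine gene TRL-CAG1-7 on chromosome 6 had a fold of 14.8 (11.9 to 18.1). The threonine gene TRT-TGT2-1 on chromosome 1, with 57187 bp to its nearest coding gene HHIPL2, had 13.7 (11.5 to 16.2) from 137 fragments.

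Next came the asparagine gene TRN-GTT24-1 with 13.5 and the isoleucine gene TRI-TAT2-1 with 13.3. The last 5 of the 10 highest lay on shared peaks. TRD-GTC2-9 and TRF-GAA1-4, which carry aspartate and phenylalanine, shared a peak with a fold of 11.8 on chromosome 12. The leucine gene TRL-TAA3-1, the arginine gene TRR-TCT3-2 and the valine gene TRV-TAC1-1 shared one with a fold of 11.5 in a tight group on chromosome 11, together with TRV-TAC2-1, a valine gene outside the rule for named genes.

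Near coding genes, 3 arginine genes on chromosome 17, TRR-CCT1-1, TRR-CCT2-1 and TRR-TCG3-1, shared 1 peak with a fold of 21.2 (18.0 to 24.8). The coding gene beside them was KCTD2, whose nearest end was 1335 to 2542 bp away. The asparagine gene TRN-GTT2-5 had 18.8 (16.4 to 21.6) and lies 887 bp from PSMB3, which encodes a proteasome subunit. The glutamate gene TRE-TTC1-2 had 16.6 (13.8 to 19.6) at 577 bp from ELF1, a gene for an ETS transcription factor. At the last pair of sites the summits lay 376 and 252 bp from the coding gene end, which is nearer than the tRNA gene's edge.

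The initiator methionine genes, whose tRNA begins every protein, were bound in 7 of 8 copies. TRX-CAT1-2 had the highest fold, 11.7, at 992 bp from the histone gene H4C8, and TRX-CAT1-1 had 9.35 at 257 bp from ILF2. Their strongest summits lay 289 and 142 bp from a coding gene end, nearer than the tRNA genes at 703 and 399 bp. TRX-CAT1-7 had 8.96, TRX-CAT1-8 had 8.31, TRX-CAT1-4 had 5.51 and TRX-CAT1-3 had 5.25. TRX-CAT1-6, which lies 119716 bp from a coding gene end, had 3.28. The unbound copy, TRX-CAT1-5, had its nearest summit 37393 bp away. By comparison 4 of 11 elongator methionine genes were bound. The intervals of both shares overlap (52.9 to 97.8% for initiator and 15.2 to 64.6% for elongator genes). Near coding ends, 4 of 4 initiator and 2 of 3 elongator genes were bound, and far from them 3 of 4 and 2 of 8. The difference was not tested.

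The selenocysteine tRNA reads a stop codon and is needed for all selenoproteins. TRU-TCA1-1 on chromosome 19 was bound, with a fold of 9.04 (7.27 to 11.1) and a summit 323 bp away, 3422 bp from the AP-1 gene FOSB. The other selenocysteine gene, TRU-TCA2-1 on chromosome 22, is a different isodecoder and had its nearest summit 194931 bp away. Among 7 tryptophan genes, 5 were bound: TRW-CCA4-1 with 8.66, TRW-CCA3-3 with 5.86, TRW-CCA3-2 with 5.51, TRW-CCA2-1 with 3.77 and TRW-CCA5-1 with 2.61 (1.58 to 4.09). That last peak rested on 17 fragments. TRW-CCA1-1 and TRW-CCA3-1 had their nearest summits at 2359 and 2866 bp.

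Every amino acid had at least 1 bound tRNA gene, but the shares ranged widely. Among the groups of 10 or more genes, aspartate had the highest share, with 12 of 13 bound (92.3%, 66.7 to 98.6), and cysteine the lowest, with 5 of 29 (17.2%, 7.60 to 34.5). Glutamate followed aspartate with 12 of 15 (80%), and then threonine with 14 of 20 and leucine with 22 of 32. At the other end, alanine had 12 of 37 bound (32.4%, 19.6 to 48.5). With a limit of 500 bp the counts were 8 of 13 for aspartate, 8 of 15 for glutamate, 9 of 20 for threonine, 13 of 32 for leucine and 5 of 29 for cysteine, and threonine and leucine then stood below glycine and arginine, with 15 of 30 and 13 of 26. At 1 kb the aspartate and cysteine intervals did not overlap, but copies share loci and peaks.

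The alanine genes divided by place. All 8 near coding gene ends were bound, against 4 of 29 far from them. They also divided by cluster, as defined below. In the main chromosome 6 cluster 6 of 27 alanine genes were bound, and in a smaller one there 0 of 3. Elsewhere it was 2 of 2 in the chromosome 12 cluster, 1 of 1 in that of chromosome 5 and 3 of 4 scattered genes. These splits were not told apart. Cysteine genes were bound in 3 of 7 cases near coding ends and 2 of 22 far from them. Aspartate genes were bound in 4 of 4 cases near and 8 of 9 far. In 4 groups the far share was the higher: proline with 6 of 13 near and 6 of 7 far, glutamine with 1 of 3 and 8 of 16, tryptophan with 2 of 3 and 3 of 4, and leucine with 6 of 9 and 16 of 23. Asparagine genes were bound in 10 of 21 cases, and their median fold of 11.97 was the highest of the 22 groups. The bound genes TRN-GTT7-1, TRN-GTT3-1, TRN-GTT2-7, TRN-GTT2-1 and TRN-GTT25-1 are alike in setting, and were named after their values were seen. All lie on chromosome 1, 2033 to 2061 bp from a coding end, with nearest summits at 217 to 281 bp and folds of 9.14 to 15.2. Whether reads were split or moved between these sites was not tested.

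Anticodons of 1 amino acid could differ in the same way. All 9 leucine genes with the anticodon CAG and all 6 threonine genes with TGT were bound. Of glycine genes, 8 of 9 with TCC were bound and 4 of 13 with GCC, where none of the 9 GCC genes far from coding ends was. Of alanine genes with AGC, 6 of 25 were bound. Of the genes counted here, 5 TRG-TCC2, 4 TRG-GCC1 and 6 TRL-CAG1 genes lie in 1 repeated array on chromosome 1. Calls there are uncertain copy by copy, as told below. These anticodons were picked after the counts were seen.

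**Figure D3:**
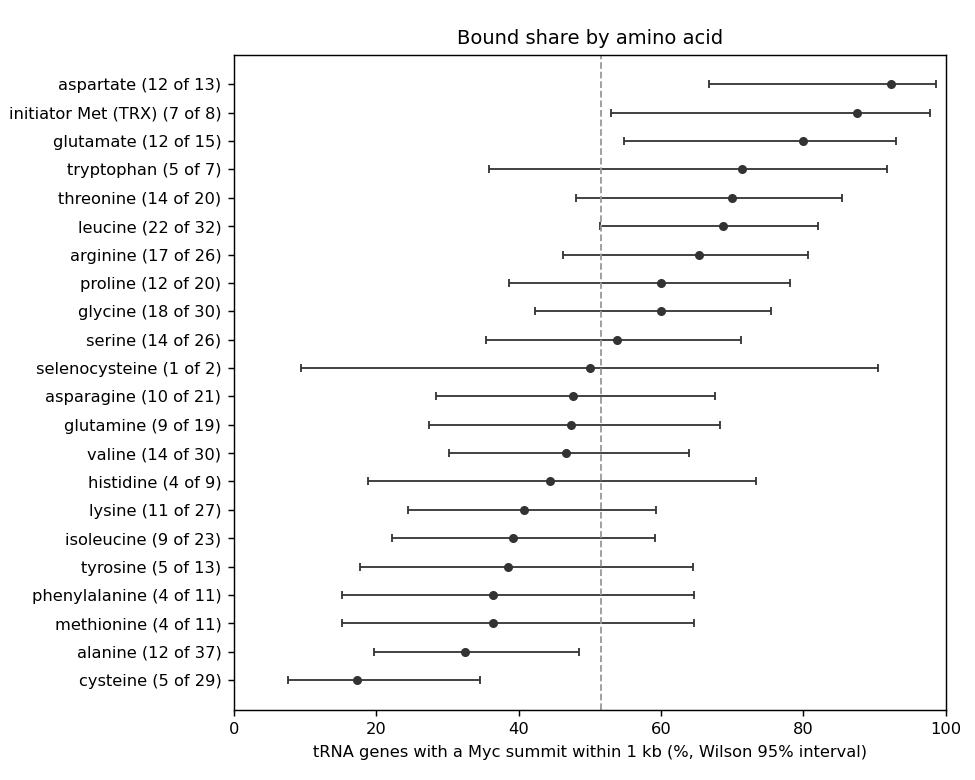
Share of tRNA genes with a Myc summit within 1 kb (x axis, %) for each of 22 amino acid groups, with Wilson 95% intervals as bars and the counts beside the names. The dashed line is the share of all tRNA genes, 51.5%, and only aspartate, initiator methionine and glutamate have intervals wholly above it, while alanine and cysteine have intervals wholly below it.

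Identical copies of a tRNA were not always bound alike. The symbols gave 256 isodecoders, of which 57 had 2 or more nuclear genes. All copies were bound in 14 of the 57, none in 11, and some but not all in 32. The split that the overall share of 51.5% would give for unrelated genes was not computed. These counts therefore do not show whether copies agree more or less often than unrelated genes. Aspartate TRD-GTC2 was bound in 11 of 11 copies, on chromosomes 1, 6, 12 and 17. Its folds ran from 2.67 to 11.8. Glycine TRG-GCC1 was bound in 0 of 5 copies and cysteine TRC-GCA9 in 0 of 4. Histidine TRH-GTG1 was bound in 4 of 9, with nearest summits from 278 to 734 bp in the bound copies and from 2085 to 61111 bp in the others. The same repeated array on chromosome 1 holds 5 of the TRD-GTC2 and 4 of the TRG-GCC1 copies. These families were picked after the counts were seen.

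The isodecoder number in the symbol also went with binding. In the naming of tRNA genes, low numbers were in general given to sequences that score higher as tRNAs. Genes numbered 1 or 2 were bound in 139 of 220 cases (63.2%, 56.6 to 69.3), those numbered 3 to 5 in 64 of 126 (50.8%) and those numbered 6 or more in 16 of 75 (21.3%, 13.6 to 31.9). Near coding ends the shares in that order were 65 of 88 (73.9%), 36 of 50 (72%) and 6 of 11 (54.5%), and their intervals overlap. Far from coding ends they were 74 of 132 (56.1%), 28 of 76 (36.8%) and 10 of 64 (15.6%), and the first and last intervals do not overlap. Whether the steps differ between both classes was not tested. The grouping of numbers was chosen after the data were seen.

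Inside the main cluster of chromosome 6, the same counts were 35 of 61, 18 of 52 and 4 of 26. Among scattered genes they were 48 of 72, 19 of 29 and 7 of 19, with no step between the first classes, and in the chromosome 16 cluster 1 of 6, 3 of 7 and 1 of 1. Of the 75 genes numbered 6 or more, 16 lie in the chromosome 7 cluster, where 1 was bound. Over all tRNA genes, the median fold of the bound ones was 6.73, 5.44 and 6.07 in that order of classes. With genes numbered 1 to 5 alone, the difference between genes near coding ends and far from them was 24.1 points.

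**Figure D4:**
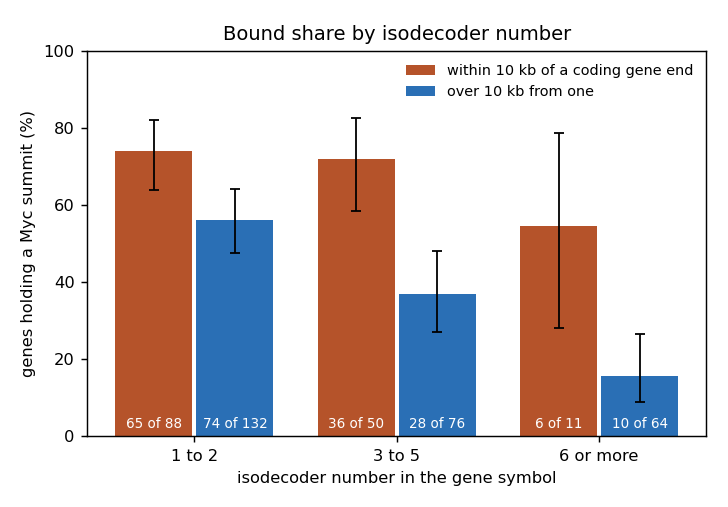
Share of tRNA genes with a Myc summit within 1 kb (y axis, %) by isodecoder number (x axis), for genes within 10 kb of a coding gene end (left bars) and over 10 kb from one (right bars), with Wilson 95% intervals. The left bars stand at 73.9%, 72% and 54.5%, and the right bars at 56.1%, 36.8% and 15.6%.

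Human tRNA genes are gathered in clusters, here defined as 5 or more genes on a chromosome with neighbours at most 500 kb apart. There were 15, with 309 genes, of which 147 were bound. Of the 120 scattered genes, 74 were bound (61.7%, 52.7 to 69.9). The largest cluster, on chromosome 6 at 26.3 to 29.0 Mb beside the replication-dependent histone genes, had 57 of 144 genes bound (39.6%, 32.0 to 47.7). There, 16 of 18 genes within 10 kb of a coding end were bound and 41 of 126 farther away. Its strongest member was TRL-CAG1-7.

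Some clusters had most of their genes bound. On chromosome 12 at 124.9 Mb all 5 genes were bound, with a median fold of 8.79. On chromosome 11, 7 of 8 genes between 59550629 and 59566452 were bound on 4 peaks. Their median fold over genes was 11.5, the fold of the peak that TRV-TAC1-1 shares with its neighbours. On chromosome 14 at 20.6 to 20.7 Mb, 11 of 14 were bound, with a median of 4.27. TRT-TGT5-1 was highest there, with 7.31, at 2415 bp from ANG, which encodes the ribonuclease angiogenin. On chromosome 17 at 8.1 to 8.2 Mb, where every gene lies within 10 kb of a coding end, 11 of 18 were bound and TRD-GTC2-11 was highest.

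Other clusters held few summits. Of 19 genes at 149.3 to 149.7 Mb of chromosome 7, most of them cysteine genes, 2 were bound, with folds of 4.57 at TRC-GCA17-1 and 2.26 at TRC-GCA1-1, which was named after its value was seen. The 6 genes of chromosome 6 near 57.8 Mb had none, and their median distance to a summit was 130139 bp. On chromosome 1, 1 of 7 genes at 148.0 to 148.5 Mb was bound, TRN-GTT2-1 with 14.3. The cluster of chromosome 16 had 5 of 14 bound, with 1 of 8 near coding ends and 4 of 6 far from them, the reverse of the whole set. On chromosome 5, 8 of 17 were bound, led by TRV-CAC1-5 with 13.99 at 814 bp from TRIM41. By chromosome, all 9 tRNA genes of chromosome 12, all 5 of chromosome 8 and all 4 of chromosome 13 were bound, and none of the 4 on X.

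The array of chromosome 1 at 161.4 to 161.6 Mb had many bound genes on few peaks. There 24 of 32 genes were bound on 11 peaks. The median fold over genes was 3.08, in which a shared peak counts once for each of its genes. With each of the 11 peaks counted once, the median was 4.16, beside 4.11 over all peaks. Pileups of 33 to 93 fragments lay behind these folds, above the median of 29 over all peaks. The control levels ran from 5.57 to 21.6, against 5.92 over all peaks, and the 5 peaks with a fold under 4 had control levels of 10.6 to 18.2. The part of the control level in these folds was not tested. The array repeats the same few genes. Its 5 TRD-GTC2, 4 TRE-CTC1, 5 TRG-TCC2 and 6 TRL-CAG1 genes, for aspartate, glutamate, glycine and leucine, were all bound. Its 4 TRG-GCC1 genes were all unbound, with nearest summits 1119 to 2676 bp away.

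Outside the repeated genes of that array, TRG-GCC2-1 had 6.55 and lies 131 bp from the Fc receptor gene FCGR2A. The repeats are close to identical, so that reads could be split or moved between them before peaks were called. Their calls and folds are uncertain copy by copy. Without chromosome 1, 169 of 344 tRNA genes were bound.

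**Figure D5:**
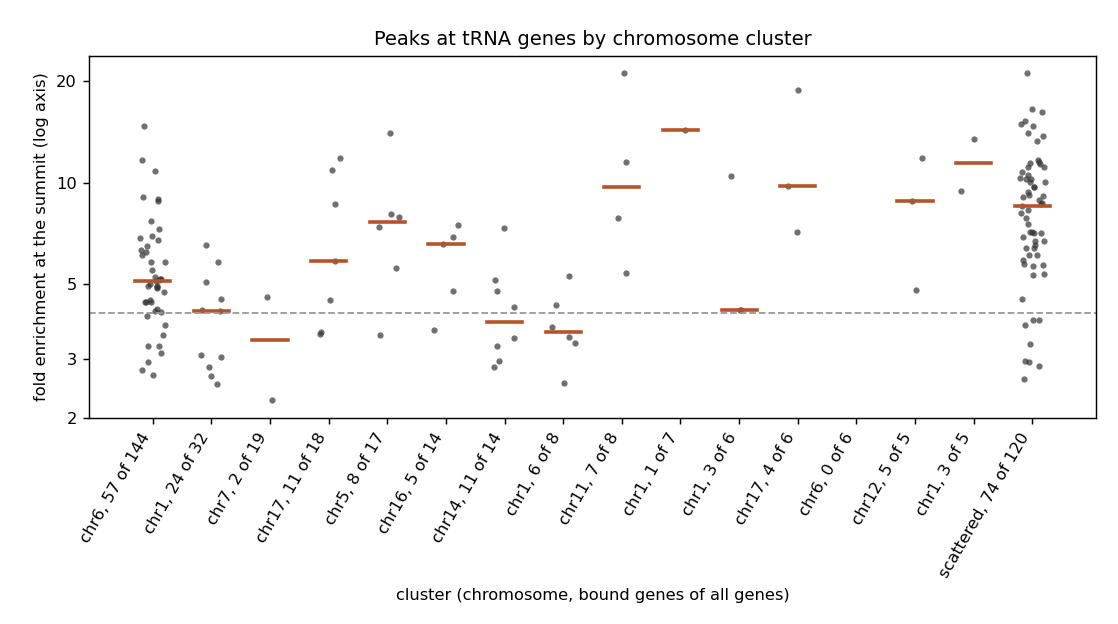
Fold enrichment at the summit (y axis, log axis) of each distinct peak that was strongest at a bound tRNA gene, by cluster (x axis, largest cluster first and scattered genes last, with bound genes of all genes in the labels). Red lines are medians over peaks, the dashed line is the median of all peaks, 4.11, and the peaks of the second cluster, the chromosome 1 array, lie between 2.52 and 6.55.

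The genes for the machinery that makes tRNA were nearly all bound at an end. Of 45 genes for polymerase III, its factors and the enzymes that process and export tRNA, 44 were bound within 1 kb of either end (97.8%, 88.4 to 99.6), where 56.8% of 19866 protein-coding genes had one. Their median fold was 11.02, beside 7.87 over all coding genes with such a summit. The exception was BRF2, which encodes the TFIIIB subunit used at U6 snRNA and similar promoters, with its nearest summit 36985 bp from an end. The list was drawn up with results of these data known.

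All 13 polymerase III subunit genes were bound. CRCP was highest with a fold of 24.6 (21.2 to 28.4), and POLR1D and POLR1C, shared with polymerase I, had 20.5 and 15.4. The gene for the largest subunit, POLR3A, had 15.1. All 6 TFIIIC genes were bound, from 7.81 at GTF3C1 to 19.7 at GTF3C2. Of TFIIIB, BDP1 had 12.2, TBP had 10.6 and BRF1 had 3.61.

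The gene for MAF1, the repressor of polymerase III, had 10.1, and GTF3A, whose protein serves the 5S genes, had 2.73. All 20 processing and export genes were bound. Among them, RPP40 and RPP25 of RNase P had 18.9 and 17.3, and TSEN34 of the splicing endonuclease had 18.1. ELAC2, which trims the 3′ end, had 14.1, SSB, the La protein that binds new transcripts, had 12.5, and TSEN15 was lowest with 4.10. Of the 45 genes, POLR3E alone has a tRNA gene within 10 kb, TRL-AAG2-4, so the summits at the others are not those counted at tRNA genes.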

How the data were processed

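Myc binding was measured by CUT&RUN in 3 Myc, 3 IgG and 1 input libraries, and 1 peak list of the whole series was used. The submitters' processing notes name MACS2 2.1.2 for peaks, hg38 as the build, and also deepTools 3.5.0, BWA 0.7.15, HOMER 4.11.1, Picard 2.19.0, SAMtools 1.5 and FastQC 0.11.7. Which control served, how replicates were pooled and the settings are not given in the sources used. For each peak the authors deposited a fold, the ratio of Myc to control signal at the summit, the −log10 of its p-value and q-value, and a display score that was not needed. The lowest −log10 q in the deposited list was 1.30.

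The pileup at each summit was solved from the deposited fold and its −log10 p, which MACS2 derives from the same pair of values, as the whole number that gave back the listed −log10 p within 0.001. This held for 47016 of 47016 nuclear peaks. A fold carries the exact Poisson 95% interval of its pileup, the control being taken as fixed. Intervals on a share are Wilson 95% intervals, and the interval on a difference is Newcombe's. Fragments carry no molecular identifiers, so the intervals on folds cover counting error only. Those on shares and on the difference rest on the counts of genes alone and hold no error from reads or replicates. The depth of each library is not given by the list.

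Gene positions came from RefSeq, GRCh38.p14, which has the chromosome sequences of hg38, and are counted from 1. Of 465 tRNA genes in the table, 22 mitochondrial genes and 14 on scaffolds outside the chromosomes were not counted among the 429. A gene's fold is that of the strongest peak with a summit in its region. Distances run from the nearer edge of the gene.

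With 1 list and no value per library, no test across samples could be made. The members and all gene lists were chosen with earlier results of these data known. The genes named are the 10 highest folds over 10 kb from a coding end, the 5 highest within 10 kb, the highest of each cluster, the 2 nearest to the limit on each side, the initiator methionine, selenocysteine and tryptophan genes and the polymerase III list. Others are said to have been picked after their values were seen. The counting code was tested on simulated data. Python 3.11.15, numpy 2.4.6, pandas 2.3.3, scipy 1.17.1, statsmodels 0.14.6 and matplotlib 3.10.9 were used. Alternatives changed the window, the peak filter, the overlap rule, the coding distance, the cluster gap and the chromosomes included, and for amino acids a 500 bp limit and the far genes alone.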

Additional observations from a re-analysis of the deposited data

Results flagged for a closer look

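Outside the nuclear genes, 1 peak of the list covered the mitochondrial genome from position 21 to 16551, and so all 22 mitochondrial tRNA genes. Its fold was 7.70, from a pileup of 28091 fragments over a control level of 3646, with a −log10 q of 14286. It was singled out because it is signal in data that no comparison above uses. A peak of 16531 bp marks no single tRNA gene, and its origin was not tested.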

How the results depend on the processing

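Over 15 alternatives, 73 values of the main counts, difference and medians were recomputed. Of these, 56 stayed within 1.5 times the reported count or inside the interval of the reported difference or median, 17 moved past that and 0 reversed. Counts inside it still shifted: 161 tRNA genes were bound with a window of 500 bp, 279 with one of 5 kb and 177 with peaks of fold 4 or more. The share of bound genes was higher within 10 kb of a coding end than over 10 kb from one in 15 of 15 cases where both were computed. With a window of 250 bp, 84 tRNA genes were bound, 34 within 10 kb of a coding end and 50 farther away, with a difference of 4.75 percentage points and a median fold of 5.10. Counting a gene as bound when a peak overlaps the tRNA gene itself gave 145 genes, 128 of which were among the 221. Of the 145, 60 were far from coding ends. The median fold over all 145 was 7.82. Peaks with a fold of at least 4 gave a median of 7.10. When both the peaks over 2 kb wide and the strongest 1% by fold were left out, 71 genes near coding ends were bound, the difference was 13.6 points and the median fold 4.92. Merging overlapping regions into loci raised the difference to 41.6 points. Without chromosome 6, 162 of 275 tRNA genes were bound (58.9%), of the far genes 71 of 144 (49.3%, against 113 of 279 or 40.5% with it), the difference was 20.2 points and the median fold 6.79. With a 20 kb limit to coding ends, 74 of 208 far genes were bound. The cause of these shifts was not tested. The polymerase III list had 39 to 44 bound genes under every alternative run for it. The alternative with isodecoder numbers 1 to 5 was added after seeing the data.

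No paired analysis was possible because the peak list holds no values per library, and for the same reason no replicate was left out. The list sets the depth: its weakest peaks at tRNA genes rest on 17 fragments, so an unbound gene is one with no listed summit at this depth, not one shown to lack Myc.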
